A study of Mus musculus with 4 samples.

Results

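Cells from mouse tumours were compared between 2 libraries of a single-cell RNA sequencing study, the one labelled C and the one labelled Ac. A cell here is a barcode with at least 1000 unique molecular identifiers (UMIs, each a counted transcript molecule), at least 200 detected genes and at most 10% of UMIs from mitochondrially encoded genes. By this rule 4208 barcodes were cells in C and 4027 in Ac, 8235 of the 15752 in all 4 libraries. The other 2 libraries, IgG with 3436 cells and aC+C with 4081, are given as values beside them. Each label stands for 1 library, from mice given as 6 to 8 weeks old. With 1 library a group there was no spread between replicates, so no test was made and no p-value is given. All intervals are exact 95% intervals for counting error alone.

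The labels used here do not say what Ac, C and aC+C stand for, nor the tumour, mouse strain, dose or time, nor how many mice were pooled. The sample titles speak of immune cells that had entered a tumour and the series title of CD8+ T cells, whereas other label fields give goblet cells, sorted from gut epithelium by a red reporter. The genes went with the titles and not with the goblet label: Muc2, the main mucin of goblet cells, and Tff3, a peptide secreted with it, stayed under 1 UMI per 1000000 in every class described below. Those classes were chosen by markers of other cell types. Barcodes that met none of the marker minimums, 2.90% of C and 2.16% of Ac, were not examined for these genes. The cells were not CD8+ T cells alone, since macrophages, monocytes, NK cells, dendritic cells and mesenchymal cells were all present by their markers.

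Tumours are entered by several kinds of immune cell. CD8 T cells kill through perforin and granzymes and release interferon gamma. They pass from a naive or stem-like state, held by factors such as TCF-1 (Tcf7), to an effector state and, under lasting stimulation, to an exhausted state with inhibitory receptors such as PD-1 (Pdcd1). Foxp3 T cells restrain other T cells. NK cells kill without priming and answer to the balance of their activating and inhibitory receptors. Monocytes come from blood and can turn into macrophages, which in tumours often carry the complement genes C1qa, C1qb and C1qc and make inflammatory mediators or suppressive factors.

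Depth was close in the libraries compared. The median cell held 10768 UMIs in C and 10493 in Ac, of 75665201 and 65973242 UMIs in all. The mitochondrial maximum removed 314 barcodes in C and 223 in Ac, and 5 cell barcodes were found in both libraries. Gm10073, Gm10076, Gstp1 and Rnaset2a differed in the libraries as a whole: each was past 1.5 times in the same direction in all 5 classes whose genes are compared below and in barcodes of 1 to 50 UMIs, which hold mostly free RNA. Gstp1, a detoxifying enzyme, had 58.8 CPM in C, 31.6 in Ac, 21.2 in IgG and 48.8 in aC+C in CD8 T-like cells, where CPM is UMIs per 1000000 of the class, the unit of all levels below. Gm10073, Gm10076 and Rnaset2a share sequence with near-identical copies, which makes their counts uncertain. These genes are not described further, but stay in the counts over all genes.

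The libraries also differed in barcodes that carried genes of more than 1 lineage. Such mixed barcodes met the marker minimums of T cells and macrophages together, for example. Barcodes with CD3 genes were also counted if they met the NK minimum, or held both Cd8 genes and Foxp3. Lymphocyte or mesenchymal barcodes were counted too if they passed a lower myeloid minimum or a minimum of MHC class II UMIs. Mixed barcodes were 21.3% of C (20.1 to 22.6) and 8.27% of Ac (7.44 to 9.16), against 19.2% of IgG and 8.45% of aC+C. They held a median of 23508 UMIs in C and 16110 in Ac, more than the median cell of either library. Barcodes with lymphocyte genes and with myeloid or MHC class II genes were 11.7% of C (10.8 to 12.7) and 4.07% of Ac (3.48 to 4.73). Those with mesenchymal and immune genes were 3.45% of C (2.92 to 4.04) and 1.04% of Ac (0.753 to 1.41). Mixed barcodes were left out of all classes, so the classes of C were drawn from a smaller part of its cells than those of Ac. Shares below are therefore followed by the share of all cells that met the same marker minimum, mixed barcodes included.

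**Figure D1:**
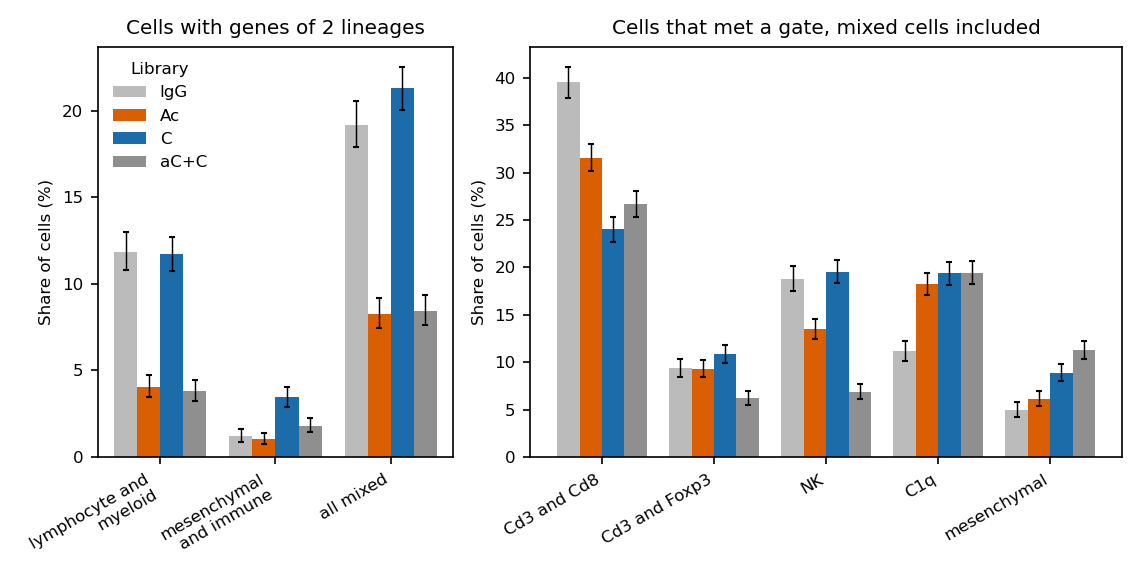
Left, the share of cells (%) set aside as mixed barcodes in each library. Right, the share that met a marker minimum when mixed barcodes were counted too. Bars are single libraries and error bars are exact 95% binomial intervals for counting error. C and IgG stand at 21.3% and 19.2% of mixed barcodes, Ac and aC+C at 8.27% and 8.45%.

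CD8 T-like cells, with CD3 genes, Cd8a or Cd8b1 and no Foxp3, made up a smaller part of C than of Ac. They were 13.5% of C (12.5 to 14.6) and 28.3% of Ac (26.9 to 29.7), on 569 and 1139 cells, a ratio of 0.478 (0.432 to 0.529). IgG stood at 26.9% and aC+C at 23.8%, so C was the lowest of the 4 libraries. With mixed barcodes included, cells with CD3 and Cd8 genes were 24.0% of C, 31.6% of Ac, 39.5% of IgG and 26.7% of aC+C. On that count C was still the lowest, and the ratio of C to Ac was 0.760. The part of mixed barcodes in the smaller share was otherwise not tested.

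The other lymphocyte classes were closer in size. Foxp3 T-like cells were 4.25% of C (3.66 to 4.91) and 6.38% of Ac (5.65 to 7.18), with 3.61% in IgG and 4.07% in aC+C, so that Ac had the highest share. With mixed barcodes included, cells with CD3 genes and a Foxp3 UMI were 10.9% of C and 9.31% of Ac, which turns the direction. NK-like cells were 12.8% of C (11.8 to 13.9) and 11.1% of Ac (10.2 to 12.1), a ratio of 1.15 (1.02 to 1.31). Mixed barcodes included, cells with NK genes were 19.5% of C and 13.5% of Ac.

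Among myeloid cells, the monocyte-like class took a larger share in C. It made up 11.5% of C (10.6 to 12.5) and 9.11% of Ac (8.24 to 10.0), a ratio of 1.26 (1.1 to 1.45), with 6.23% in IgG and 15.0% in aC+C. In barcodes with at least 10% of the 99th percentile of depth this ratio turned to 0.918. C1q macrophage-like cells were 15.2% of C (14.2 to 16.4) and 16.7% of Ac (15.5 to 17.9), a ratio of 0.913 (0.818 to 1.02) whose interval holds 1. Both libraries stood above the 8.38% of IgG. Mixed barcodes included, cells with C1q genes were 19.4% of C and 18.2% of Ac, and those with macrophage or monocyte genes 36.1% and 28.3%. Dendritic-like cells were 2.02% of C (1.62 to 2.49) and 3.03% of Ac (2.52 to 3.61), but cells with dendritic genes, mixed barcodes included, were 5.23% and 4.42%, the other way round.

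Mesenchymal cells were few. Fibroblast-like cells were 3.11% of C (2.61 to 3.68) and 2.19% of Ac (1.76 to 2.69), a ratio of 1.42 (1.08 to 1.89). Tumor-like cells, mesenchymal cells with little Dcn and Col3a1 beside Hmga2 and Tm4sf1, were 2.33% of C (1.89 to 2.83) and 2.91% of Ac (2.41 to 3.47), a ratio of 0.802 (0.607 to 1.06) whose interval holds 1. The line between these classes cuts a continuum, since 48 of 229 mesenchymal cells in C and 44 of 205 in Ac lay near it. Mixed barcodes included, mesenchymal cells were 8.89% of C and 6.13% of Ac.

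**Figure D2:**
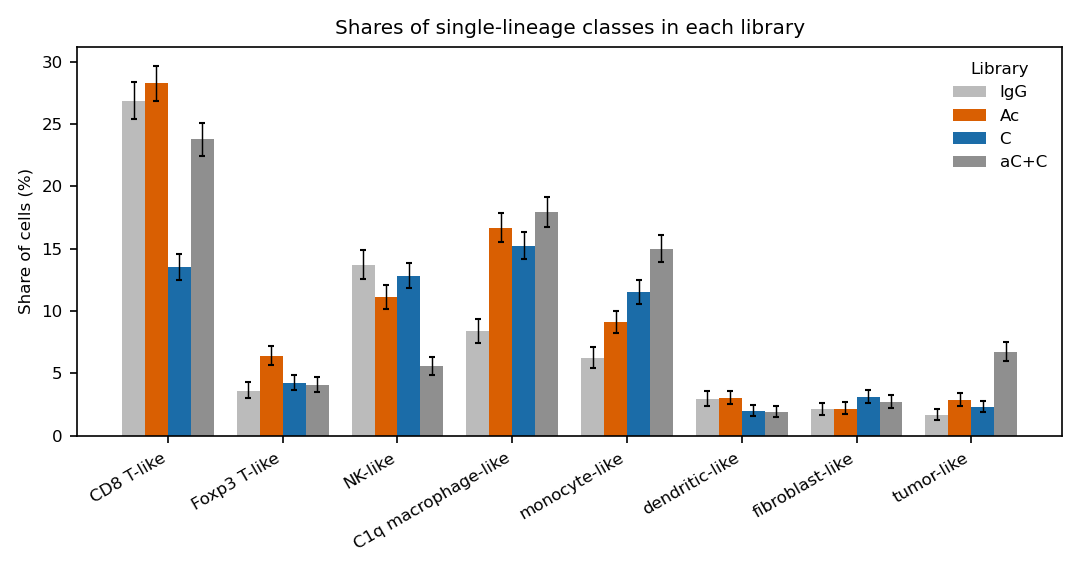
Share of cells (%) in each single-lineage class in the IgG, Ac, C and aC+C libraries. Bars are single libraries and error bars are exact 95% binomial intervals for counting error. CD8 T-like cells stand at 13.5% in C and between 23.8% and 28.3% in the other libraries.

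Levels within a class were compared as the CPM in C over the CPM in Ac. A gene was ranked if C and Ac together held at least 100 of its UMIs in the class. A gene past 2 times was counted as called, and members of gene lists were counted at 1.5 times. In CD8 T-like cells the counts were as follows. Of 8700 ranked genes 46 (0.529%) were at least 2 times higher in C and 27 (0.310%) at least 2 times lower, and at 1.5 times 190 (2.18%) were higher and 142 (1.63%) lower. When mixed barcodes were kept in the class, 396 of 9533 ranked genes were at least 2 times higher. The median ratio over all ranked genes was 1.02.

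Among CD8 T-like cells, genes of naive, memory and stem-like T cells stood higher in C. Here 12 of 14 listed genes were ranked, 7 were at least 1.5 times higher in C and 0 lower, and the median ratio was 1.61. Tcf7 (ENSMUSG00000000782), the transcription factor of stem-like T cells, had 38.8 CPM in C, 13.2 in Ac, 26.1 in IgG and 20.04 in aC+C. C was the highest and Ac the lowest, with a ratio of C to Ac of 2.94 (2.45 to 3.54). Klf2, a factor that keeps T cells in circulation, had 137 CPM in C, 54.7 in Ac, 68.7 in IgG and 87.5 in aC+C, a ratio of 2.51 (2.29 to 2.76). C was again the highest and Ac the lowest. S1pr1, a target of Klf2 by which T cells leave tissue, had 19.3 CPM in C, 5.92 in Ac, 10.2 in IgG and 11.01 in aC+C, a ratio of 3.25 (2.48 to 4.29). Ccr7, the receptor that guides cells to lymph nodes, had 69.8 CPM in C, 42.8 in Ac, 47.4 in IgG and 39.0 in aC+C, a ratio of 1.63 (1.45 to 1.83). Slamf6 and Il7r were also past 1.5. Over the alternatives run the ratio was 2.37 to 3.24 for Tcf7, 2.17 to 2.91 for Klf2 and 2.60 to 3.99 for S1pr1.

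Tcf7 was seen in few cells. With each cell thinned to 1000 UMIs it had a UMI in 4.75% of cells in C (3.15 to 6.83) and 2.11% in Ac (1.35 to 3.12), and without thinning in 19.7% and 7.46%. In C1q macrophage-like cells, which should lack it, the thinned shares were 0% in C and 0.149% in Ac. Median depths were 10800 UMIs in C and 10679 in Ac in the CD8 T-like class and 13006 UMIs in C and 15415 in Ac in the macrophage class.

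Genes better known from NK cells were also higher in this class in C. Of the NK cell receptors 13 of 24 listed genes were ranked, 6 were at least 1.5 times higher in C and 0 lower, and the median ratio was 1.49. Fcer1g (ENSMUSG00000058715), a signalling adaptor of Fc and NK receptors, had 454 CPM in C, 142 in Ac, 327 in IgG and 214 in aC+C, a ratio of 3.20 (3.03 to 3.38). Tyrobp, the adaptor DAP12, had 37.8 CPM in C, 13.3 in Ac, 30.8 in IgG and 26.7 in aC+C, a ratio of 2.84 (2.36 to 3.43). For both genes C was the highest and Ac the lowest. Over the alternatives the ratio ranged from 3.02 to 5.17 for Fcer1g and from 2.30 to 5.07 for Tyrobp, highest with mixed barcodes kept. The alternatives include cells with few myeloid UMIs. The lectin-like receptor Klrb1a had a ratio of 3.40 (2.30 to 5.07) on 74 UMIs in C and 43 in Ac. Klra5, of the Ly49 family, had a ratio of 2.07 (1.60 to 2.68), with 27.0% of its UMIs in Ac in 1 cell. Klrb1b and Klra7 were the remaining members past 1.5. Ncr1, a receptor that defines NK cells, had 2.79 CPM in C and 0.807 in Ac, a ratio of 3.46 (1.62 to 7.71) on 21 UMIs in C and 12 in Ac. The NK marker genes of the class rule, Ncr1, Klrb1c and Klra8, had a UMI in 7.73% and 3.95% of cells in C and Ac. Barcodes over the NK minimum were kept out of the class, so its low Ncr1 follows from the rule. The parts of NK cell RNA and of myeloid RNA in these ratios were otherwise not tested.

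The granzyme genes went in both directions. Gzmf, Gzmc, Gzme and Gzmd, proteases encoded side by side and found in activated killer cells, were the 4 of 17 ranked cytotoxic genes at least 1.5 times higher in C. Gzmf had 1221 CPM in C, 734 in Ac, 913 in IgG and 1703 in aC+C, a ratio of 1.66 (1.62 to 1.71). C stood above Ac and IgG and below aC+C. Gzme had 178 CPM in C and 77.0 in Ac, a ratio of 2.32 (2.14 to 2.51), with 20.8% of its UMIs in C in 1 cell. The likeness of these granzymes makes the split of reads between them uncertain. Gzmk (ENSMUSG00000042385), a granzyme of early effector and memory cells, was the 1 member at least 1.5 times lower. It had 31.2 CPM in C, 88.7 in Ac, 65.4 in IgG and 78.3 in aC+C, a ratio of 0.352 (0.305 to 0.405), and C was the lowest. With cells thinned to 1000 UMIs it had a UMI in 2.28% of cells in C (1.22 to 3.88) and 9.04% in Ac (7.44 to 10.9), and in the macrophage class in 0% in C and 0% in Ac.

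The main killing genes were closer. Gzmb had 1283 CPM in C, 1750.1 in Ac, 1543 in IgG and 2279 in aC+C, a ratio of 0.733 (0.716 to 0.750). Prf1, which encodes perforin, had 146 CPM in C, 157 in Ac, 117 in IgG and 271 in aC+C, a ratio of 0.927 (0.862 to 0.996). The cytotoxic list as a whole had a median of 0.948. Gzmb and Prf1 fell outside the rule for naming genes and were chosen after their values were seen.

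Cytokine genes stood higher in C. Of the lymphocyte cytokines and chemokines 16 of 21 listed genes were ranked, 7 were at least 1.5 times higher in C and 2 lower, and the median ratio was 1.44. Ifng (ENSMUSG00000055170), which encodes interferon gamma, had 390.5 CPM in C, 229 in Ac, 219 in IgG and 222 in aC+C, a ratio of 1.71 (1.62 to 1.79). C stood alone above the other libraries, and the gene was named after its values were seen. With cells thinned to 1000 UMIs it had a UMI in 23.6% of cells in C (20.1 to 27.3) and 14.5% in Ac (12.5 to 16.7), and in the C1q macrophage-like class in 0.312% in C and 0% in Ac. Tnf, the inflammatory cytokine, had 17.0 CPM in C and 9.55 in Ac, a ratio of 1.78 (1.39 to 2.28). Xcl1, a chemokine that draws cross-presenting dendritic cells, had a ratio of 1.97 (1.81 to 2.14). A single cell held 24.95% of the Xcl1 UMIs of C, and in cells with few myeloid UMIs, a setting chosen after seeing the data, the ratio was 1.16. Csf2, a growth factor for myeloid cells, had a ratio of 2.06 (1.59 to 2.66), with 23.6% of its UMIs in C in 1 cell. Ccl5, the effector chemokine RANTES, went the other way, with 1470.5 CPM in C, 2672 in Ac, 1744 in IgG and 1436 in aC+C and a ratio of 0.550 (0.539 to 0.562). Here it was Ac that stood above the other 3 libraries.

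Ac also stood highest for several other genes of the class. Ly6c2, a surface protein of memory and effector CD8 T cells and of monocytes, had 554 CPM in C, 1061 in Ac, 599.5 in IgG and 704 in aC+C, a ratio of 0.522 (0.505 to 0.541). S100a6, a small calcium-binding protein, had 1127 CPM in C, 2143 in Ac, 1512 in IgG and 1609.9 in aC+C, a ratio of 0.526 (0.513 to 0.539). Lilrb4a, an inhibitory receptor, had 19.1 CPM in C, 52.9 in Ac, 33.1 in IgG and 23.1 in aC+C, a ratio of 0.361 (0.300 to 0.432), and Lilr4b, its close relative, a ratio of 0.371 (0.295 to 0.462). With mixed barcodes kept these stood nearer to 1, Lilrb4a at 0.606 and Lilr4b at 0.597. Pmepa1, a target and inhibitor of TGF-beta signalling, had 51.1 CPM in C, 101 in Ac, 59.2 in IgG and 49.2 in aC+C, a ratio of 0.504 (0.449 to 0.564), and 0.759 with mixed barcodes kept.

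Among inhibitory receptors 1 of 17 ranked genes was past 1.5. Pdcd1, which encodes PD-1, had 248 CPM in C, 381 in Ac, 331 in IgG and 375 in aC+C, a ratio of 0.650 (0.617 to 0.685), and C was the lowest. Lag3, another inhibitory receptor, had 264 CPM in C and 307 in Ac, a ratio of 0.862 (0.817 to 0.909). The median of the list was 0.956. Cell cycle genes were level: 0 of 42 S phase genes and 0 of 52 of G2 and M phase were past 1.5, with medians of 1.01 and 1.01. The median was 0.910 for glycolysis, 0.819 for hypoxia and 0.943 for MHC class I and peptide loading.

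Traces of other cells moved with these results. In the CD8 T-like class macrophage and monocyte marker genes had a median of 1.17 UMIs per 10000 in C and 0.728 in Ac, with a UMI in 73.1% and 61.3% of cells. MHC class II genes had a UMI in 69.1% and 48.6% of cells, and 4 of 6 ranked ones were at least 1.5 times higher in C. Cd74, the invariant chain, had 57.8 CPM in C and 31.9 in Ac, a ratio of 1.81 (1.59 to 2.07) that stood at 10.5 when mixed barcodes were kept. In cells with few macrophage, monocyte and MHC class II UMIs, 28 of 8277 ranked genes were at least 2 times higher, in place of 46 of 8700. The part of this RNA in single genes was otherwise not tested. Several genes of the class also differed in barcodes of 1 to 50 UMIs, in the same direction. The ratio there was 0.239 for Gzmk, 0.595 for Ccl5, 0.601 for Pdcd1, 0.780 for Gzmb, 1.42 for Gzmf, 1.51 for Gzme and 1.55 for Csf2. Others went the other way there, among them Ccr7 at 0.721 and Xcl1 at 0.895.

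Large ratios also belonged to rare transcripts. Tmem176a had a ratio of 6.69 (4.58 to 10.0) and Tmem176b of 5.73 (4.14 to 8.04), neighbouring membrane genes of dendritic and some T cells. Tmem176a had 16.2 CPM in C, 2.42 in Ac, 14.5 in IgG and 2.61 in aC+C. It had a UMI in 6.15% of the class in C and 1.58% in Ac, where 1 cell held 36.1% of its UMIs. With cells thinned, Tmem176a had a UMI in 8.58% of C1q macrophage-like cells in C and 9.08% in Ac. In CD8 T-like cells these shares were 0.879% and 0.176%. For Tmem176b the macrophage shares were 13.9% and 13.2%, against 1.23% and 0.0878%. Over the alternatives the ratio was 4.63 to 11.4 for Tmem176a and 4.15 to 8.04 for Tmem176b. The part of macrophage RNA in these ratios was otherwise not tested. At the other end Upk1a, a uroplakin gene, had 1.33 CPM in C, 8.40 in Ac, 2.13 in IgG and 9.17 in aC+C, a ratio of 0.158 (0.0740 to 0.300).

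**Figure D3:**
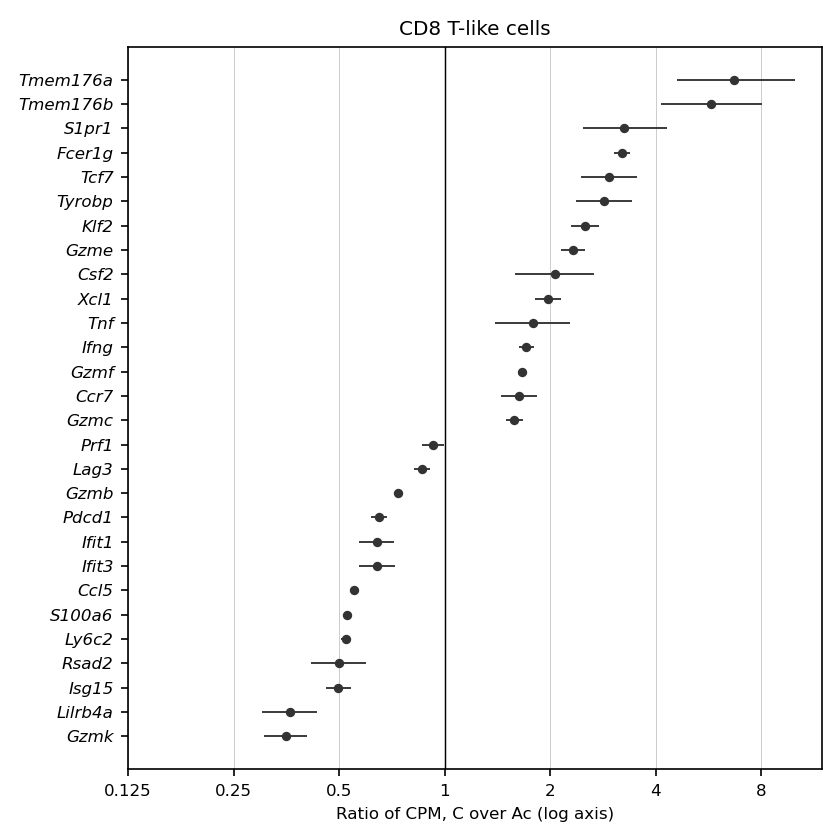
Ratio of the level (CPM) in C over that in Ac for named genes in CD8 T-like cells, on a log axis. Points are ratios of summed UMIs and lines are exact 95% intervals for counting error; the vertical line marks equal levels. Tcf7 stands at 2.94 and Fcer1g at 3.20 on the side of C, Gzmk at 0.352 and Isg15 at 0.497 on the side of Ac.

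Genes of the type I interferon response, which cells switch on when they sense interferon alpha or beta, stood lower in C in the same class. Here 28 of 33 listed genes were ranked, 1 was at least 1.5 times higher in C and 7 lower, and the median ratio was 0.747. Isg15 (ENSMUSG00000035692), a ubiquitin-like modifier, had 91.2 CPM in C, 183 in Ac, 145 in IgG and 137 in aC+C, a ratio of 0.497 (0.457 to 0.541), and C was the lowest. Rsad2, the antiviral enzyme viperin, had 20.3 CPM in C, 40.8 in Ac, 35.7 in IgG and 22.2 in aC+C, a ratio of 0.498 (0.414 to 0.595), and 0.875 with mixed barcodes kept. Rtp4, an interferon-induced chaperone, had a ratio of 0.625 (0.550 to 0.709). Ifit1, Ifit2 and Ifit3, which bind RNA, had ratios of 0.641, 0.654 and 0.641, and Mx1, an antiviral GTPase, of 0.658; these 4 were named after their values were seen. Oasl2, of the oligoadenylate synthetase family, was the exception, with 11.4 CPM in C and 4.17 in Ac and a ratio of 2.74 (1.95 to 3.86).

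The promoters of 4 of the 7 lower genes are shown because they carry letters of the interferon-stimulated response element, through which interferon is known to act, read here as GAAANNGAAA on either strand (TTTCNNTTTC on the other). Sequences are from the RefSeq table of GRCm38.p6, and each is given 5′ to 3′ along the gene's strand with matches in capitals. The windows searched run from 250 bases before to 50 after a start site. Isg15 lies on the minus strand at chr4:156200855-156200916, Ifit1 on the plus strand at chr19:34640765-34640833, Ifit3 on the plus strand at chr19:34583353-34583436 and Rsad2 on the minus strand at chr12:26456543-26456592, each stretch upstream of the start site.
Isg15: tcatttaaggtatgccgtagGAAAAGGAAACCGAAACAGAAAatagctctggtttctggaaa
Ifit1: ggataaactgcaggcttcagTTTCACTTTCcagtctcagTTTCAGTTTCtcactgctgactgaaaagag
Ifit3: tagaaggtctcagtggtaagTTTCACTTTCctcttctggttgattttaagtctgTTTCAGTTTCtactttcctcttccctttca
Rsad2: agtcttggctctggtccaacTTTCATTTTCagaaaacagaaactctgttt
Isg15 held 3 overlapping matches, Ifit1 and Ifit3 held 2 each and Rsad2 held 1. Of 32851 windows of 300 bases 3.44% held the motif. Counted by gene, 1079 of 27025 genes (3.99%) held it, and of the 24 listed interferon genes with a window 14 did. Among the 7 lower genes Mx1 and Rtp4 were not searched. The windows of Ifit2 did not hold these letters, which says nothing of the factor. A match is a description of the sequence and was not tested as a cause of the lower levels.

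Fcer1g had no UMI in 55.4% of CD8 T-like cells in C and 78.2% in Ac. With a minimum of 3 Fcer1g UMIs per 10000, chosen after seeing the data, 166 of 569 cells in C reached it, or 29.2% (25.5 to 33.1). In Ac 107 of 1139 did, or 9.39% (7.76 to 11.2), which made the ratio 3.11 (2.42 to 3.998). IgG stood at 23.6% and aC+C at 14.8%. This is a range of a level and not a cell type, and 30 cells in C and 31 in Ac lay near the minimum.

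Within the cells over the minimum Gzmf did not stand higher in C, whereas Gzme and Tcf7 did. Gzmf had 2261 and 2349 CPM in C and Ac there, a ratio of 0.963 (0.925 to 1.00), and under the minimum 677 and 522 CPM, a ratio of 1.30 (1.24 to 1.35). The level of Gzmf was higher over the minimum than under it in both libraries. The other granzymes of the cluster did not all follow Gzmf. Gzme had ratios of 1.90 (1.65 to 2.19) over and 1.74 (1.56 to 1.93) under the minimum, Gzmd of 0.956 and 1.1 and Gzmc of 0.885 and 1.41. Tcf7 had 16.6 and 4.64 CPM over the minimum and 50.3 and 14.3 CPM under it, ratios of 3.58 (1.67 to 8.83) and 3.52 (2.90 to 4.28). Klf2 had ratios of 1.89 over and 2.98 under it, and Ifng of 1.92 and 1.77. Among the lower genes Ly6c2 stood at 0.486 and 0.538, Isg15 at 0.539 and 0.547 and Gzmk at 0.154 and 0.463. From Tcf7 to Gzmk, each of these 6 genes differed in the same direction on both sides of the minimum.

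**Figure D4:**
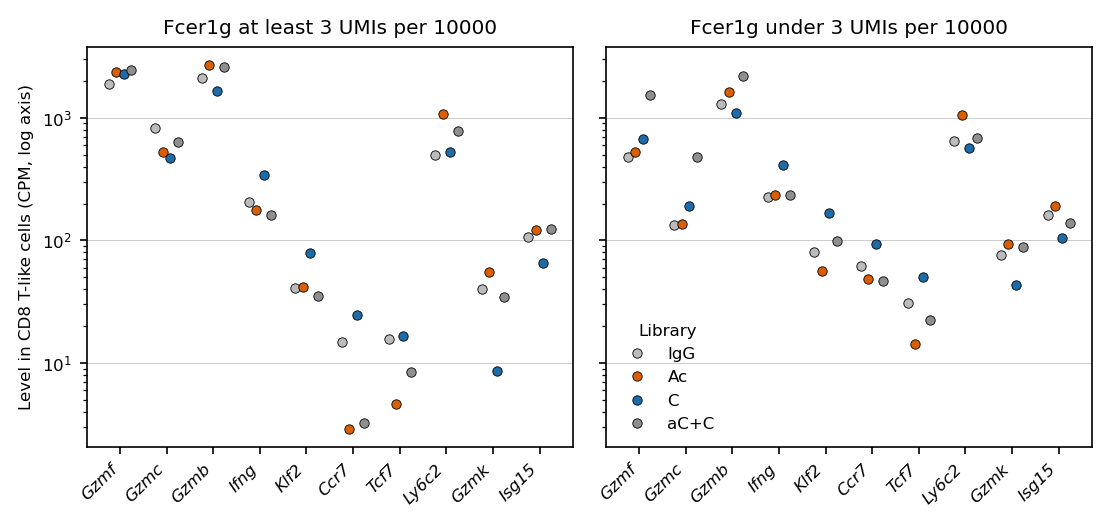
Level (CPM, log axis) of named genes in CD8 T-like cells with at least 3 Fcer1g UMIs per 10000 (left) and under 3 (right) in the 4 libraries. Each point is the summed level of 1 library, with no error bar. Gzmf lies at 2261 in C and 2349 in Ac on the left, whereas Tcf7 lies higher in C than in Ac in both panels.

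Foxp3 T-like cells were compared on fewer cells and at less depth. There were 179 in C and 257 in Ac, with medians of 4490 UMIs in C and 5279 in Ac. Foxp3 had 478 and 527 CPM in C and Ac, and Il2ra, the interleukin 2 receptor alpha chain, 733 and 746 CPM. Of 3885 ranked genes 13 (0.335%) were at least 2 times higher in C and 14 (0.360%) at least 2 times lower, and at 1.5 times 42 (1.08%) were higher and 104 (2.68%) lower. Leaving out the cell with the most UMIs of each gene left 4 of 3709 ranked genes at least 2 times higher.

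Interferon genes again stood lower in C in the Foxp3 T-like class. Of the type I response 26 of 33 listed genes were ranked, 0 were at least 1.5 times higher in C and 4 lower, and the median ratio was 0.846. Isg15 had 212 CPM in C, 402 in Ac, 315 in IgG and 375 in aC+C, a ratio of 0.529 (0.454 to 0.615), and C was the lowest. Ifit2 had 27.3 CPM in C and 66.1 in Ac, a ratio of 0.413 (0.267 to 0.623), and ranged from 0.192 to 0.590 over the alternatives. The myeloid classes described below did not share the lower type I response. Their list medians were 1.05 in C1q macrophage-like and 0.979 in monocyte-like cells, each over 32 ranked genes. In each of them 1 gene was at least 1.5 times higher in C and 0 lower.

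Genes of suppressive function leaned the same way, as did other lists of the class. Cholesterol and fatty acid synthesis had a median of 0.821 and hypoxia 0.838, against 0.982 over all ranked genes and 1.09 for cytosolic ribosomal proteins. Of the regulatory T cell genes 19 of 24 listed genes were ranked, 0 were at least 1.5 times higher in C and 2 lower, and the median ratio was 0.864. The lower members were Areg, a growth factor of tissue repair, and Itgae, an integrin chain of tissue residency. In deeper barcodes the median was 1.07 and Areg turned from 0.623 to 1.20. Ctla4, a receptor that strips costimulation from dendritic cells, had 1539 CPM in C, 1895 in Ac, 1345 in IgG and 1854 in aC+C, a ratio of 0.812 (0.765 to 0.862). Tnfrsf9, the costimulatory receptor 4-1BB, had 1017 CPM in C and 1401 in Ac, a ratio of 0.726 (0.676 to 0.780). Pdcd1 had 105 CPM in C, 190.2 in Ac, 91.7 in IgG and 183 in aC+C, a ratio of 0.551 (0.441 to 0.684), and 0.837 in cells with few myeloid UMIs. For Pdcd1 C stood near IgG and Ac near aC+C.

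Cycling genes stood lower in the Foxp3 T-like cells of C, but few cells held them. Mki67, present in dividing cells, had a ratio of 0.574 (0.458 to 0.715), with 23.2% of its UMIs in C in 1 cell. The S phase list had a median of 0.819 over 21 ranked genes and the G2 and M phase list of 0.837 over 26. With cells weighted equally both turned, to 1.06 and 1.02, and in cells with few myeloid UMIs the second was 0.278. Among the higher genes were the early response factors Fosb, with 341 CPM in C, 179 in Ac, 232 in IgG and 114 in aC+C and a ratio of 1.90 (1.63 to 2.22), and Jun, with a ratio of 1.79 (1.503 to 2.12). C was the highest for Fosb and aC+C the lowest. Macrophage and monocyte marker genes had a median of 1.14 UMIs per 10000 in C and 0 in Ac in this class, and their part in these results was otherwise not tested.

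NK-like cells were close in their receptors and killing genes. There were 540 in C and 448 in Ac, with medians of 10910.5 UMIs in C and 12549 in Ac. Of 7397 ranked genes 14 (0.189%) were at least 2 times higher in C and 7 (0.0946%) at least 2 times lower, and at 1.5 times 82 (1.11%) were higher and 58 (0.784%) lower. Of the NK cell receptors 19 of 24 listed genes were ranked, 0 were at least 1.5 times higher in C and 0 lower, and the median ratio was 0.997. Of the cytotoxic genes 17 of 18 listed genes were ranked, 0 were at least 1.5 times higher in C and 0 lower, and the median ratio was 1.01. Klrd1, the CD94 chain, had 1396 CPM in C and 1334 in Ac, a ratio of 1.05 (1.02 to 1.08). Prf1 had 252 CPM in C and 250.04 in Ac, a ratio of 1.01 (0.941 to 1.08), and Gzmb a ratio of 0.966 (0.945 to 0.987); both were named after their values were seen. Gzmf, described above in CD8 T-like cells, had 2715 CPM in C, 1940 in Ac, 2822 in IgG and 3553 in aC+C here, a ratio of 1.40 (1.37 to 1.43), and the ratio was 1.42 in barcodes of 1 to 50 UMIs.

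Single genes stood higher in the NK-like cells of C, among them Klrg1, Ccl3 and Fos. Klrg1, a receptor of mature NK cells, had 83.9 CPM in C, 42.9 in Ac, 67.6 in IgG and 70.3 in aC+C, a ratio of 1.96 (1.69 to 2.27), and Ac was the lowest. With cells thinned to 1000 UMIs it had a UMI in 7.78% of cells in C (5.66 to 10.4) and 2.90% in Ac (1.55 to 4.91), against 0.156% in C and 0% in Ac in the C1q macrophage-like class, which should lack it. The chemokine Ccl3 had 48.8 CPM in C, 24.4 in Ac, 25.03 in IgG and 44.5 in aC+C, a ratio of 2.00 (1.64 to 2.45) that ranged from 1.33 to 4.33 over the alternatives. Of the lymphocyte cytokines and chemokines 10 of 21 listed genes were ranked, 1 was at least 1.5 times higher in C and 3 lower, and the median ratio was 0.989. Ccl3 was the higher member, and Penk, Csf2 and Ccl1 were the lower ones, with Csf2 at 0.329 (0.222 to 0.478) and 45.9% of its UMIs in Ac in 1 cell. Of the genes of T cell costimulation and activation 11 of 14 listed genes were ranked, 0 were at least 1.5 times higher in C and 0 lower, and the median ratio was 0.942. Fos had 259.5 CPM in C, 171 in Ac, 212 in IgG and 126 in aC+C, a ratio of 1.52 (1.40 to 1.64), while Fosl2, of the same AP-1 family, had a ratio of 0.647 (0.594 to 0.704). Of 36 ranked S phase genes 32 were above 1 and 0 past 1.5, with a median of 1.14. The G2 and M phase list had a median of 1.09, with Cenpf, a kinetochore protein, past 1.5 at 1.56 (1.24 to 1.97).

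Lower genes of the NK-like class included receptors and hypoxia genes. Cxcr4, a chemokine receptor, had 44.9 CPM in C, 72.0 in Ac, 49.3 in IgG and 74.6 in aC+C, a ratio of 0.623 (0.536 to 0.723). C stood lowest. Lag3 had a ratio of 0.723 (0.633 to 0.825), and Hes1, a transcription factor downstream of Notch, of 0.489 (0.358 to 0.663), or 0.735 with all marker minimums doubled. The hypoxia list had a median of 0.902, with Ndrg1 past 1.5 at 0.593. The type I interferon list had a median of 0.950, and Isg15 a ratio of 0.703 (0.625 to 0.789). Traces of myeloid RNA were higher in C here too: Lyz2, the lysozyme of myeloid cells, had 40.5 CPM in C and 17.2 in Ac, and 3 of 7 ranked MHC class II genes were at least 1.5 times higher, though the list's median turned from 1.28 to 0.905 with 5% background removed. Macrophage and monocyte marker genes had a UMI in 71.3% and 58.5% of NK-like cells.

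C1q macrophage-like cells of C held less of many inflammatory genes. There were 641 cells in C and 672 in Ac, with C1qa at 5292 and 4896 CPM. Of 8739 ranked genes 26 (0.298%) were at least 2 times higher in C and 26 (0.298%) at least 2 times lower, and at 1.5 times 120 (1.37%) were higher and 171 (1.96%) lower. Of the inflammatory myeloid genes 23 of 27 listed genes were ranked, 1 was at least 1.5 times higher in C and 8 lower, and the median ratio was 0.801. Ptgs2 (ENSMUSG00000032487), the prostaglandin enzyme COX-2, had 73.1 CPM in C, 171 in Ac, 177 in IgG and 179 in aC+C, a ratio of 0.427 (0.389 to 0.467). C stood alone at the low end, and with cells thinned to 1000 UMIs the gene had a UMI in 6.40% of cells in C (4.63 to 8.58) and 12.1% in Ac (9.69 to 14.8), against 0.176% in C and 0.0878% in Ac in CD8 T-like cells. Cxcl1, a chemokine for neutrophils, had 49.4 CPM in C, 132 in Ac, 71.2 in IgG and 151 in aC+C, a ratio of 0.375 (0.336 to 0.418), and 0.494 in barcodes of 1 to 50 UMIs. Its relative Cxcl2 had 1898 CPM in C, 3074 in Ac, 2284 in IgG and 3230.1 in aC+C, a ratio of 0.618 (0.606 to 0.629). C was the lowest for both. Il1b, the inflammasome cytokine, had 1215 CPM in C, 1881 in Ac, 1487 in IgG and 1741 in aC+C, a ratio of 0.646 (0.631 to 0.661), and was named after its values were seen.

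Nos2, which makes nitric oxide, came from few cells. It had 4.12 CPM in C, 26.4 in Ac, 4.34 in IgG and 43.0 in aC+C, so that C was near IgG and Ac near aC+C, with a ratio of 0.156 (0.107 to 0.221). With cells thinned to 1000 UMIs it had a UMI in 0.468% of cells in C (0.0966 to 1.36) and 2.08% in Ac (1.14 to 3.47), and without thinning in 3.43% and 10.1%, against thinned shares of 0% in C and 0% in Ac in CD8 T-like cells. In the macrophage class 1 cell held 22.2% of the UMIs of C. Inhba, a subunit of activin, had a ratio of 0.210 (0.125 to 0.336) on 21 UMIs in C and 120 in Ac, and 0.670 with mixed barcodes kept. Il10, the suppressive cytokine, had 6.42 CPM in C, 15.8 in Ac, 7.81 in IgG and 16.3 in aC+C, a ratio of 0.405 (0.294 to 0.551), and 0.706 with mixed barcodes kept.

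Early response genes were lower in the same cells. Of the immediate early genes 23 of 25 listed genes were ranked, 0 were at least 1.5 times higher in C and 7 lower, and the median ratio was 0.802. Of the TNF and NF-kB response 21 of 21 listed genes were ranked, 0 were at least 1.5 times higher in C and 6 lower, and the median ratio was 0.899. Nr4a3, an orphan receptor induced by stimulation, had 47.4 CPM in C, 116 in Ac, 96.3 in IgG and 80.2 in aC+C, a ratio of 0.410 (0.366 to 0.459). Tnfaip3, the NF-kB inhibitor A20, had a ratio of 0.594 (0.548 to 0.643). Of the heat shock genes 15 of 16 listed genes were ranked, 0 were at least 1.5 times higher in C and 3 lower, and the median ratio was 0.960, with Hspb1, Hspa1b and Hspa1a lower. Of the genes of unfolded protein and amino acid stress 24 of 30 listed genes were ranked, 1 was at least 1.5 times higher in C and 2 lower, and the median ratio was 1.01. Hspa1a, a heat shock chaperone, had 29.8 CPM in C, 90.2 in Ac, 55.0 in IgG and 47.0 in aC+C, a ratio of 0.330 (0.287 to 0.379), and it stood at 0.491 in barcodes of 1 to 50 UMIs as well. Many of these genes are also induced when tissue is taken apart, which was not tested here.

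Hypoxia genes were lower, while antigen presentation genes leaned slightly upward without passing 1.5 times. Of the hypoxia genes 17 of 21 listed genes were ranked, 0 were at least 1.5 times higher in C and 6 lower, and the median ratio was 0.842, with 0 above 1. Vegfa, the vessel growth factor, had 265 CPM in C, 414 in Ac, 343 in IgG and 389.8 in aC+C, a ratio of 0.639 (0.607 to 0.672), and Hilpda, which binds lipid droplets, 77.9 CPM in C, 159 in Ac, 96.3 in IgG and 217 in aC+C, a ratio of 0.490 (0.447 to 0.536). C was the lowest for both. Mmp12, an elastase, had 151 CPM in C, 292 in Ac, 74.6 in IgG and 289.8 in aC+C, a ratio of 0.517 (0.485 to 0.552), and 0.312 in barcodes of 1 to 50 UMIs. Pf4, a chemokine of platelets and macrophages, had 281 CPM in C and 464 in Ac, a ratio of 0.607 (0.578 to 0.637), and 0.437 in the same barcodes. Of the collagen and matrix genes 9 of 40 listed genes were ranked, 4 were at least 1.5 times higher in C and 0 lower, and the median ratio was 1.06, the higher ones being Col3a1, Bgn, Dcn and Thy1. Mesenchymal marker genes, which include Col3a1 and Dcn, had a UMI in 25.6% and 22.2% of cells of the class in C and Ac. Of the MHC class II genes 8 of 10 listed genes were ranked, 0 were at least 1.5 times higher in C and 0 lower, and the median ratio was 1.05. Of 18 genes of MHC class I and peptide loading 17 were above 1 and 0 past 1.5, with a median of 1.11. Psmb10, an immunoproteasome subunit, had a ratio of 1.25 (1.19 to 1.32). The interferon gamma response had a median of 1.15 over 23 genes, with 1 at least 1.5 times higher and Nos2 lower.

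The higher genes of the macrophage class were of several kinds. Of the monocyte genes 24 of 27 listed genes were ranked, 2 were at least 1.5 times higher in C and 3 lower, and the median ratio was 0.983, with Hp and Ly6c2 higher and Thbs1, F13a1 and Nr4a1 lower. Ly6c2, which marks inflammatory monocytes, had 337 CPM in C, 186 in Ac, 555 in IgG and 378 in aC+C, a ratio of 1.81 (1.71 to 1.92), with Ac the lowest. Ccl8, a chemokine for monocytes and lymphocytes, had 385 CPM in C, 244 in Ac, 399 in IgG and 591 in aC+C, a ratio of 1.58 (1.502 to 1.67). Retnla, a product of alternatively activated macrophages, had a ratio of 3.32, but 22.1% of its UMIs in C and 36.8% in Ac lay in 1 cell, and with cells weighted equally the ratio was 1.24. Several other higher genes belong to lymphocytes, among them Thy1 at 2.57, Ltb at 2.61 and Klrd1 at 2.34, and 8 of 10 ranked cytotoxic genes were at least 1.5 times higher. Cd3d stood at 8.13 and 5.15 CPM and Ncr1 at 2.52 and 1.15 CPM in C and Ac. In cells with few lymphocyte and mesenchymal UMIs, a setting chosen after seeing the data, Klrd1 stood at 1.34. There 12 of 8580 ranked genes were at least 2 times higher, in place of 26 of 8739.

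Monocyte-like cells also held less of the inflammatory genes in C. There were 484 in C and 367 in Ac, with medians of 7655 UMIs in C and 8566 in Ac and with Lyz2 at 15522 and 13981 CPM and Ly6c2 at 1906 and 1674 CPM. Of 6174 ranked genes 17 (0.275%) were at least 2 times higher in C and 23 (0.373%) at least 2 times lower, and at 1.5 times 100 (1.62%) were higher and 131 (2.12%) lower. Of the monocyte genes 25 of 27 listed genes were ranked, 0 were at least 1.5 times higher in C and 1 lower, and the median ratio was 0.946. Of the inflammatory myeloid genes 23 of 27 listed genes were ranked, 1 was at least 1.5 times higher in C and 6 lower, and the median ratio was 0.801. Cxcl1 had 54.3 CPM in C, 151 in Ac, 39.7 in IgG and 139.6 in aC+C, a ratio of 0.361 (0.306 to 0.424), with 28.5% of the UMIs of Ac in 1 cell. C stood near IgG and Ac near aC+C. Ptgs2 had 153 CPM in C, 239 in Ac, 187 in IgG and 227 in aC+C, a ratio of 0.642 (0.577 to 0.715). Il1b, named after its values were seen, had 2315 CPM in C, 3045 in Ac, 2578 in IgG and 2788 in aC+C, a ratio of 0.760 (0.739 to 0.782). Cxcl3, a chemokine of the same cluster as Cxcl1, had a ratio of 0.190, but 46.5% of the UMIs of Ac lay in 1 cell.

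Cxcr4 (ENSMUSG00000045382), the receptor for CXCL12, differed in many cells of the monocyte-like class. It had 139.8 CPM in C, 325 in Ac, 218 in IgG and 204 in aC+C, a ratio of 0.431 (0.388 to 0.478) that ranged from 0.369 to 0.449 over the alternatives. C was the lowest and Ac the highest. With cells thinned to 1000 UMIs it had a UMI in 14.7% of cells in C (11.6 to 18.1) and 28.9% in Ac (24.3 to 33.8), and without thinning in 49.6% and 74.7%. In CD8 T-like cells, which also use the gene, the thinned shares were 4.75% in C and 5.62% in Ac. Egr2, an early response factor, had 35.6 CPM in C, 74.4 in Ac, 68.8 in IgG and 31.5 in aC+C, a ratio of 0.479 (0.387 to 0.591). Cd63 and Tnfrsf9 had ratios of 0.460 and 0.326, which turned to 1.09 and 1.02 with mixed barcodes kept. A single cell held 27.3% of the Tnfrsf9 UMIs of C.

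Lipid and hypoxia genes leaned the same way in monocyte-like cells. Of the genes of cholesterol and fatty acid synthesis 16 of 30 listed genes were ranked, 0 were at least 1.5 times higher in C and 2 lower, and the median ratio was 0.798. Insig1, a regulator of this pathway, had 39.4 CPM in C and 63.7 in Ac, a ratio of 0.619 (0.500 to 0.764), and Sqle, one of its enzymes, a ratio of 0.406 (0.260 to 0.623), or 0.680 with all marker minimums doubled. Of the hypoxia genes 16 of 21 listed genes were ranked, 0 were at least 1.5 times higher in C and 4 lower, and the median ratio was 0.860. Genes of the interferon gamma response leaned upward, with a median of 1.17 over 21 ranked genes and 2 at least 1.5 times higher. Cxcl9, a chemokine that draws T cells, had 262 CPM in C, 158 in Ac, 304 in IgG and 469 in aC+C, a ratio of 1.65 (1.49 to 1.84), but 1.04 with all marker minimums doubled, and 1.63 in barcodes of 1 to 50 UMIs. Gbp8, a guanylate-binding protein, had a ratio of 1.81 (1.21 to 2.78).

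The myeloid classes shared genes past 1.5 times. Of 6145 genes ranked in both, 34 were lower in C in both, 32.4% of the 105 lower in C1q macrophage-like cells and 27.2% of the 125 lower in monocyte-like cells. Another 15 were higher in both, 42.9% of 35 and 15.8% of 95. Both classes come from the same libraries, so the overlap only describes these libraries.

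**Figure D5:**
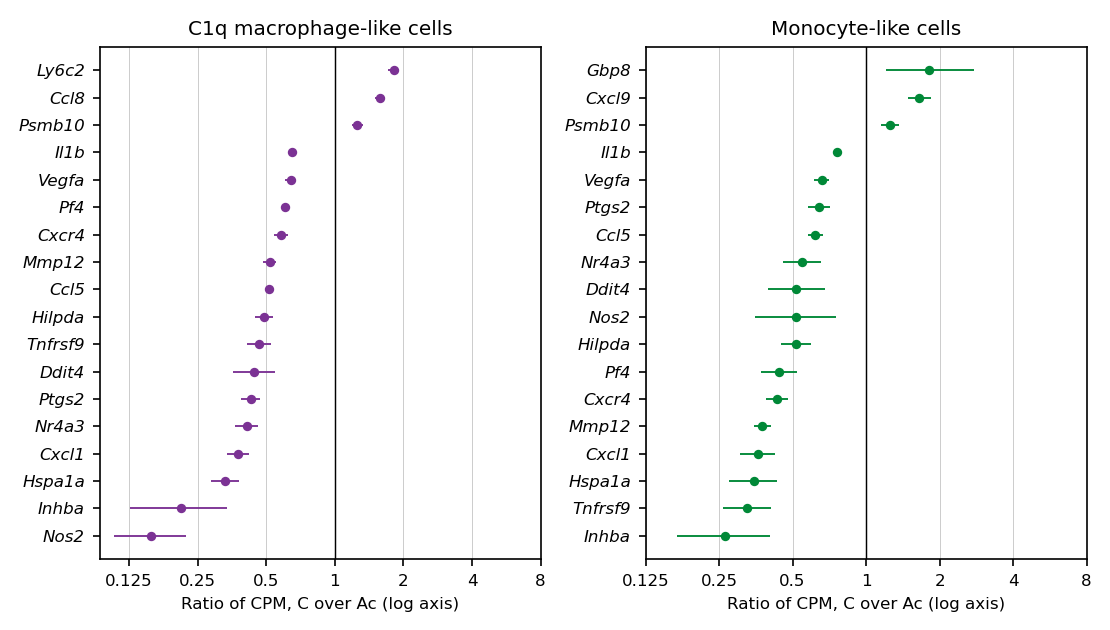
Ratio of the level (CPM) in C over that in Ac for named genes in C1q macrophage-like (left) and monocyte-like cells (right), on log axes. Points are ratios of summed UMIs and lines exact 95% intervals for counting error; the vertical line marks equal levels. Ptgs2 lies at 0.427 and 0.642 and Cxcr4 at 0.579 and 0.431.

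The remaining classes had under 100 cells in at least 1 library, so only marker levels are given, for C and then Ac. Xcr1, Clec9a, Flt3, Fscn1, Cd209a, Dcn, Col3a1, Tm4sf1 and Hmga2 were also among the genes that chose the cells of these classes. Their levels follow in part from that choice. In dendritic-like cells Xcr1, the receptor for Xcl1 on cross-presenting cells, had 144 and 242 CPM, Clec9a, a receptor for dead cells, 63.1 and 102 CPM, and Flt3, the growth factor receptor of the lineage, 67.4 and 132 CPM. These 3 were lower in C, as was the median total of the dendritic marker genes of the class rule, at 15.0 and 23.9 UMIs per 10000. Ccr7 and Fscn1 of migratory cells had 691 and 899 CPM and 362 and 548 CPM, while Cd209a, of another dendritic subset, had 252 and 215 CPM. The endothelial gene Cdh5 had 97.6 and 2.14 CPM in the same class, and its part in these levels was not tested. In fibroblast-like cells the matrix genes Dcn and Col3a1 had 4064 and 3783 CPM and 3205 and 3383 CPM. In tumor-like cells Tm4sf1 had 1180.4 and 1358 CPM and Hmga2, a chromatin protein of growing cells, 305 and 294 CPM, and Cdkn2a had no UMI in either library. Cd3g, a T cell gene, stood at 18.4 and 6.41 CPM in the tumor-like class.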

How the data were processed

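The deposited values were raw UMI counts per gene and barcode of 4 libraries, listed for every barcode of the list rather than for called cells. Per the submitters' processing notes the authors used Cell Ranger 2.1.1 with mm10, while the file headers give software version 3.0.2. Nothing in the sources used here gives further steps.

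Cells were chosen as stated above and put into classes by minimums on summed marker UMIs, which were set after seeing the data. Barcodes that met the minimums of more than 1 lineage were left out as mixed. So were those with CD3 and NK genes, or with CD3 genes, Cd8 genes and Foxp3. Lymphocyte or mesenchymal barcodes were also left out if they held at least 5 MHC class II UMIs, at 10 per 10000 or more. The same held for at least 5 macrophage or monocyte UMIs at 10 per 10000, below the 20 required to name that class. No doublet caller was run in the main analysis. Each gene's UMIs were summed within a class and divided by the total of that class (CPM). Shares have Clopper-Pearson intervals and ratios exact conditional binomial intervals, which cover counting error only. Of 921 listed and marker genes 913 were found by symbol and 6 by gene ID, and a few measured genes are not reported here. Named genes were, for each class, the 10 highest and 10 lowest ranked by the interval bound nearer to 1 (5 and 5 in Foxp3 T-like and monocyte-like cells), leaving out genes with over 20% of their UMIs in 1 cell of the library where they were higher, up to 4 members of each list, and the class markers. The parts of the comparison and the lists were chosen with earlier results of these data known. Scripts used python 3.11.15, numpy 2.4.6, scipy 1.17.1, pandas 2.3.3 and scanpy 1.11.5, and the ratio step was tested on simulated data.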

Additional observations from a re-analysis of the deposited data

How the results depend on the processing

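No paired analysis was possible because each group was 1 library, and for the same reason no replicate could be left out. Over the alternatives 55 ratios of shares kept within their counting interval, 8 moved and 1 reversed. The counts that stayed near, moved and reversed were 1853, 346 and 6 for ratios of named genes, and 198, 22 and 4 for list medians. Each result was counted once for each alternative, and some counted as moved also crossed 1. With mixed barcodes kept, the ratio of shares went from 0.913 to 1.05 for C1q macrophage-like and from 0.802 to 1.07 for tumor-like cells. Gzma in CD8 T-like cells went from 0.835 to 1.32 with mixed barcodes kept and to 1.35 with marker minimums doubled. Ccl4 in NK-like cells went from 1.47 to 0.945 in deeper barcodes. The median of cytotoxic genes in C1q macrophage-like cells had no value with 5% background removed, since members were then at 0 in Ac. For the changes below the cause was not tested.

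With mixed barcodes kept, the ratio of shares was 0.640 for CD8 T-like, 1.32 for NK-like, 1.05 for C1q macrophage-like, 1.45 for monocyte-like, 0.964 for dendritic-like and 1.07 for tumor-like cells. Genes at least 2 times higher then numbered 396 of 9533 ranked in CD8 T-like and 66 of 5232 in Foxp3 T-like cells. They numbered 104 of 7974 in NK-like, 230 of 9927 in C1q macrophage-like and 249 of 7467 in monocyte-like cells. Ifit3 turned to 1.20 in NK-like cells, Tnfrsf9 to 1.08 in C1q macrophage-like cells, and Ccl5, Cd63 and Tnfrsf9 to 1.04, 1.09 and 1.02 in monocyte-like cells.

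In barcodes of at least 10% of the 99th percentile depth the ratio of shares was 0.820 for Foxp3 T-like and 0.918 for monocyte-like cells. There 29 of 8381 ranked genes were at least 2 times higher in CD8 T-like cells. In Foxp3 T-like cells Areg turned to 1.20 and the regulatory median to 1.07. With markers read on thinned cells the NK-like ratio of shares was 1.35. With cells weighted equally the Foxp3 T-like medians turned to 1.06 for S phase and 1.02 for G2 and M phase. In NK-like cells 11 of 7397 ranked genes were then at least 2 times lower.

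With a minimum of 30 UMIs a gene, more genes were ranked. Genes at least 2 times higher and lower then numbered 146 and 101 of 10331 ranked in CD8 T-like cells. In Foxp3 T-like cells they numbered 72 and 111 of 7199, and in NK-like cells 89 and 39 of 9545. In C1q macrophage-like cells they numbered 130 and 79 of 10547, and in monocyte-like cells 95 and 89 of 8706. With the top cell of each gene left out 4 of 3709 were higher in Foxp3 T-like and 9 of 7274 in NK-like cells. In the same setting 4 of 7274 were lower in NK-like and 14 of 6006 in monocyte-like cells. With marker minimums doubled 23 of 7388, 75 of 8880 and 108 of 7554 were higher in NK-like, C1q macrophage-like and monocyte-like cells. With 5% background removed 9 of 7201 were higher in NK-like and 15 of 8573 in C1q macrophage-like cells. The MHC class II median of NK-like cells then turned to 0.905. With a mitochondrial maximum of 5%, 9 of 7167 were higher in NK-like cells. In the settings chosen after seeing the data, cells with few myeloid UMIs gave 28 higher genes of 8277 ranked in CD8 T-like cells. In Foxp3 T-like cells they gave 31 lower ones of only 1454 ranked, where the main run had 14 of 3885. Cells with few lymphocyte or mesenchymal UMIs gave 12 higher of 8580 in C1q macrophage-like and 11 of 5846 in monocyte-like cells.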

Other observations

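Other macrophage programmes were mixed in the C1q macrophage-like cells. Of the genes of alternative activation and suppression 19 of 20 listed genes were ranked, 2 were at least 1.5 times higher in C and 4 lower, and the median ratio was 0.854. The lower members were Il10, Thbs1, Ccl17 and Vegfa, and the higher ones Ear2 and Retnla. Of the complement and scavenging genes 19 of 23 listed genes were ranked, 1 was at least 1.5 times higher in C and 3 lower, and the median ratio was 0.908, with Pf4, Cd163 and F13a1 lower and Ccl8 higher. In monocyte-like cells, of the lipid-associated macrophage genes 18 of 24 listed genes were ranked, 1 was at least 1.5 times higher in C and 4 lower, and the median ratio was 0.861, with Cd9, Cd63, Mmp13 and Mmp12 lower and Lpl higher.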
